A study of Homo sapiens with 8 samples.

Results

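The accessible chromatin around 10 genes of heart muscle energy metabolism was followed through cardiac differentiation. The genes are PPARGC1A, PPARGC1B, PPARA, ESRRA, ESRRG, PDK4, CPT1B, CKM, MB and FABP3. Their regions were taken as every ATAC-seq peak that overlaps the GENCODE span of a gene or the 20 kb on either side of it (GRCh38), merged over the libraries where peaks overlap. This gave 176 regions of the 285909 merged regions on chromosomes 1 to 22 and X.

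In ATAC-seq, the Tn5 transposase inserts sequencing adapters into DNA that is not covered by nucleosomes, so that a pile of insertions marks an open site. All libraries were made from the human embryonic stem cell line RUES2, which is long established. The 4 stages, with 2 replicate libraries each, were undifferentiated cells at day 0 (hESC), mesoderm at day 2 (MES), cardiac progenitors at day 5 (CP) and cardiomyocytes at day 14 (CM). Differentiation was driven by the WNT activator CHIR-99021, which was first added on the day before the hESC samples were collected, then at day 0 at the change to RPMI with albumin and ascorbic acid, then by the WNT inhibitor Xav-939 from day 3, and it ended in RPMI with B27. The groups are thus 1 cell line along 1 protocol without selection of myocytes named in the labels, and the sources used here do not state for these libraries whether the replicates of a stage are separate differentiations, so that p-values measure only the spread between these libraries.

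The adult heart draws most of its energy from fatty acids, whereas stem cells rely largely on glycolysis. PPARGC1A and PPARGC1B encode the coactivators PGC-1α and PGC-1β, which bind nuclear receptors such as PPARα (PPARA) and the estrogen-related receptors ERRα and ERRγ (ESRRA, ESRRG), and these together switch on genes of mitochondria and of fatty acid use. PDK4, CPT1B, CKM, MB and FABP3 lie downstream of or beside this circuit as enzymes and carriers, and their products accumulate as heart muscle matures, a process that is largely incomplete in cardiomyocytes made in culture.

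The lists of the 8 libraries held 55777 (CM replicate 2) to 156179 peaks (MES replicate 2). At an assumed genome size of 2.7 Gb, the backgrounds of the lists correspond to 34.3 M reads in CM replicate 2 up to 62.3 M in hESC replicate 2. A list names only what passed the threshold of the peak caller, so a missing peak is not a closed site, and in bulk chromatin fewer cells with an open site cannot be told apart from a less open site in each cell. The promoter of NANOG, a pluripotency factor, had a peak in the hESC and MES libraries only, while 3 of the 5 pluripotency promoters examined had a peak in each CM library, LIN28A and DNMT3B in both. The promoter of MYH6, the alpha myosin heavy chain, had a peak in CP replicate 2 and both CM libraries. The promoter of MYH7, the ventricular myosin heavy chain, had no peak in any library, and of the 5 cardiomyocyte promoters examined 2 had a peak in each hESC library, 4 in CM replicate 1 and 3 in CM replicate 2. Of the markers of other lineages, 3 of 4 stromal and smooth muscle promoters had a peak in every library and CDH5 and COL3A1 in none, while the endothelial promoters numbered 1 to 2 of 3 per library. The 4 mesoderm, 4 cardiac progenitor and 2 neural promoters had a peak in every library, and skeletal muscle promoters numbered 1 to 3 of 3. A promoter peak thus does not by itself mark a stage or a lineage here. The part of other lineages in the results below was not tested.

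The regions were narrow, with a median width of 336 bp, and their folds over the local background ran from 2.21 to 19.0. ESRRG, by far the longest of the genes, held 71 of them, PPARGC1B 28, MB 17, PPARA 14, PPARGC1A 13, ESRRA 11, CKM 10, FABP3 5, PDK4 4 and CPT1B 3. A peak in all 8 libraries was found in 23 regions and a peak in only 1 library in 62. At promoters, defined as within 1 kb of the start of any annotated transcript of the gene, 9 of 22 regions were open in all 8 libraries, and away from any promoter 8 of 142 were.

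Regions were called gained where both CM libraries and neither hESC library had a peak, and lost in the opposite case. Of the 176 regions, 8 were gained and 23 were lost. Among all merged regions 3.15% were gained and 13.5% lost, and in the windows of all protein-coding genes 3.22% and 12.7%, so the counts of these genes lie close to the background. The gained regions belong to PPARGC1A (2), ESRRG (3) and MB (3), and 6 of the 8 lie in introns. In 5 of them no library of an earlier stage had a peak. Both counts depend on the libraries. Without CM replicate 2, 23 regions were gained, and without CM replicate 1, 13 were gained and 35 lost. Without hESC replicate 1, 61 were lost, and with lists of equal length 11 were gained and 10 lost.

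All 8 gained regions of the set passed the peak threshold in both CM libraries and in neither hESC library. The sequences of 6 of them are shown. Each is 200 bp of hg38 around the summit of the strongest peak, on the plus strand, 5′ to 3′. Capitals mark matches to letters of cardiac or metabolic regulators, searched on both strands. These were AGATAA for the GATA factors, AAAAATAG for MEF2, TNAAGTG for NKX, GGAATG for TEAD, AGGTGTGA for the T-box factors, GCGCATGCG for NRF1, TCAAGGTCA for the ERRs, and the nuclear receptor core AGGTCA, which the ERR element contains.
PPARGC1A intron, chr4:23819042-23819241: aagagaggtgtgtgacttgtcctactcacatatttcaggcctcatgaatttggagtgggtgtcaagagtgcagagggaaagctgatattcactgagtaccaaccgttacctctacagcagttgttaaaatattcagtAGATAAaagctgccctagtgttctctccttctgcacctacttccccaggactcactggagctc
PPARGC1A intron, chr4:23866548-23866747: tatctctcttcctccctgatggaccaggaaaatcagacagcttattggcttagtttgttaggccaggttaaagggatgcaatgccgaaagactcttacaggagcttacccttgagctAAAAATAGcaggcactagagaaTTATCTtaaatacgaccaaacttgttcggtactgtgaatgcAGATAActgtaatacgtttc
ESRRG intron, chr1:216710166-216710365: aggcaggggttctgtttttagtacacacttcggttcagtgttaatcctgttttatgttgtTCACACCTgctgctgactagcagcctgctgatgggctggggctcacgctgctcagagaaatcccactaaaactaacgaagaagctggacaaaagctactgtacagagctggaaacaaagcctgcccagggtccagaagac
ESRRG intron, chr1:216758292-216758491: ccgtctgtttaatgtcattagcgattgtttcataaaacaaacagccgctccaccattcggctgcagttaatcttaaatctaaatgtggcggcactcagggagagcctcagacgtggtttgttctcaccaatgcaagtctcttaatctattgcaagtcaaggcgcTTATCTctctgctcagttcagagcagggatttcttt
MB intron, chr22:35620982-35621181: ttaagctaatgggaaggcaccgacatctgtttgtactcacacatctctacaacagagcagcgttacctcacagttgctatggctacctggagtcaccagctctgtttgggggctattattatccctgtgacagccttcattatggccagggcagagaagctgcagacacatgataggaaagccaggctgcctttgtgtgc
MB upstream, chr22:35638462-35638661: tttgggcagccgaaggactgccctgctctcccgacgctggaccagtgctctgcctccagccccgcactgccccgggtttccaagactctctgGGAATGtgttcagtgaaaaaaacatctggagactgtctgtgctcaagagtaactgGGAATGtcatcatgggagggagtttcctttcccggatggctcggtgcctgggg

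The GATA letters were found in both PPARGC1A introns and in 4 of the 8 gained regions, against 2 of the 23 lost ones. Over the whole genome they stood in 30.5% of gained, 7.21% of lost and 11.3% of all regions. The second PPARGC1A intron is the only gained region of the set with the MEF2 letters, which 2.60% of all gained and 0.638% of all regions hold. TEAD letters stood in both of the windows upstream and downstream of MB that are gained, and the intronic window of MB held none of the letters searched. The gained regions not shown are the one downstream of MB and an ESRRG intron (chr1:216606101-216606300) that held GATA and NKX letters. Among all 176 regions, GATA letters occurred in 18 (10.2%), the receptor core in 20 (11.4%, against 13.9% of all regions), NKX in 16 (9.09%, against 10.3%), TEAD in 36 (20.5%, against 14.6%), T-box in 3 (1.70%, against 1.86%), MEF2 in 3 (1.70%) and NRF1 in 0 (against 0.214%). The full ERR element occurred once, in a region 15526 bp upstream of PPARGC1B that had a peak in hESC replicate 2 only, with a fold of 4.03. These matches are a description, without a test.

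PPARGC1A (chr4:23755041-23904089, minus strand) gained 2 regions and lost 2, all in introns. The intronic region 23399 bp into the gene from the canonical start (chr4:23866469-23866823) had a fold of 6.28 in CM replicate 1 and 6.15 in CM replicate 2, with −log10 q of 16.2 and 11.2. The region 70905 bp into the gene (chr4:23819035-23819413) had folds of 6.70 and 5.56, with −log10 q of 19.0 and 9.69. None of the 6 hESC, MES and CP libraries had a peak in either, and the pileups behind the CM values were 22 to 38 reads. Farther into the gene, both hESC libraries and neither CM library had a peak 114190 bp (folds of 4.25 and 3.34) and 118337 bp (4.04 and 4.24) from the canonical start.

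The PPARGC1A promoter (chr4:23889626-23890288), whose summit lies 59 bp inside the first exon, was open in every library. Its fold was 4.53 and 7.30 in hESC, 5.645 and 5.63 for MES, 4.56 and 7.40 for CP, and 8.14 and 7.82 in CM. Both CM values lay above those of all other libraries, but hESC replicate 2 and CP replicate 2 came close to them. The mean rose from 5.91 ± 1.96 in hESC (SD, n = 2 libraries here and below) to 7.98 ± 0.23 in CM, a difference of 0.69 in centred log2 fold (SE 0.20, limma, adjusted p = 0.0427). The call was lost without hESC replicate 1, at 0.36 (limma, adjusted p = 0.304), and without either CM or either MES library. It was also lost with quantile normalization, at 0.65 (limma, adjusted p = 0.0671), and without centring, at 0.47 (limma, adjusted p = 0.320). With the pileup over the library background the difference was 1.52 (limma, adjusted p = 0.00190). A second PPARGC1A promoter region, 857 bp into the gene, had a peak in MES replicate 2, CP replicate 1 and CM replicate 1 only.

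**Figure D1:**
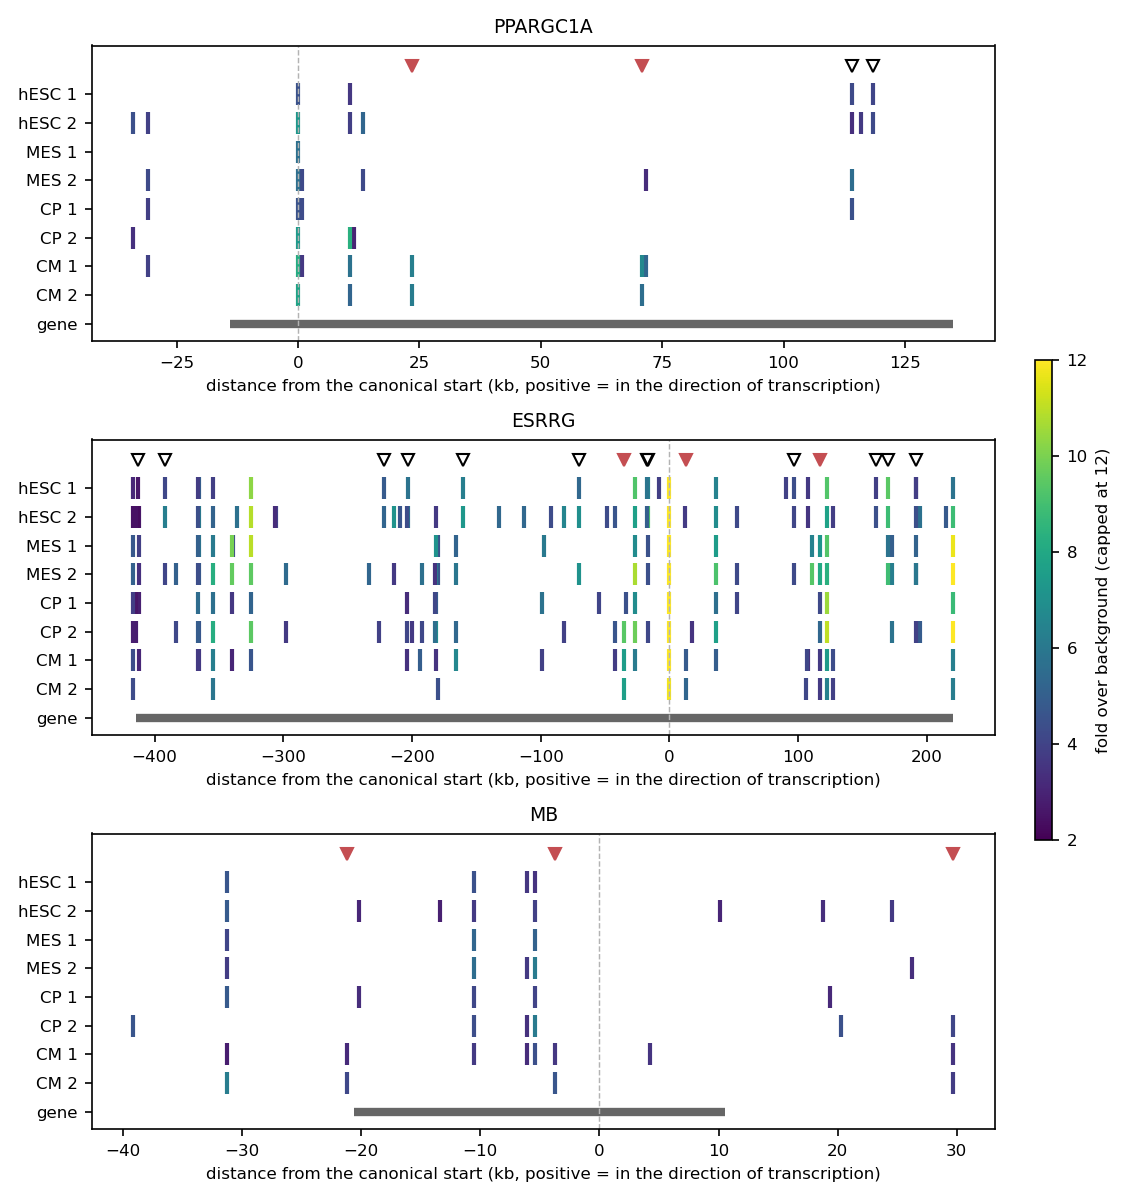
Peaks along PPARGC1A, ESRRG and MB by library, with the distance of the region's summit from the canonical start on the x axis (kb) and the fold over background as colour. Filled triangles mark the 8 gained regions, open triangles the lost ones, and the grey bar the gene. The 2 gained PPARGC1A regions appear in the CM rows only, whereas the start of MB has no peak in any row.

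ESRRG (chr1:216503246-217137755, minus strand) encodes ERRγ, a nuclear receptor that is active without a known natural hormone and is abundant in the heart. It had the strongest peak of the set. Of its 71 regions 3 were gained (4.23%) and 12 lost (16.9%), where 3.15% and 13.5% of all merged regions were. The region 34963 bp upstream of the canonical start, inside an intron of the longer transcripts (chr1:216758127-216758563), had folds of 7.54 and 7.61 in CM and 9.41 in CP replicate 2, and no peak in the other 5 libraries. That 13163 bp downstream of the start (chr1:216710107-216710351) was seen in CM only, with folds of 4.85 and 5.26. The third, 117228 bp downstream (chr1:216606044-216606400), opened earlier. Its fold was 7.17 and 8.05 for MES, 4.21 and 5.31 for CP and 3.69 and 3.70 in CM, so that it was highest at day 2.

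Of the 12 ESRRG regions lost, the 3 with the highest mean −log10 q in hESC lay in introns. The one 170198 bp downstream of the canonical start had folds of 9.44 and 8.84 in hESC and of 5.80 and 8.91 in MES, and no peak in CP or CM. At 16539 bp upstream of the start the folds were 6.37 and 9.23 in hESC and 4.52 and 4.46 in MES, CP replicate 2 had 4.18, and the other libraries had no peak. At 160268 bp upstream only the hESC libraries had a peak, with 6.25 and 7.29. The other 9 had hESC folds of 2.29 to 6.94.

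The promoter at the canonical ESRRG start was the most open site of the set. Its fold was 17.0 and 16.0 in hESC, 15.7 and 15.2 for MES, 16.1 and 19.0 for CP, and 13.9 and 11.8 in CM. The CM values were the lowest 2 of the 8, yet relative to the other regions of the same libraries the difference from hESC was −0.14 (95% interval −0.47 to 0.19, limma, adjusted p = 0.551). A second promoter, 354958 bp upstream at the start of longer transcripts, behaved otherwise. Its fold was 3.87 and 5.16 in hESC and 6.25 and 5.90 in CM, and the values of 5.645 to 8.28 in MES and CP lay above those of hESC too. It rose by 0.66 in centred log2 fold from hESC to CM (SE 0.17, limma, adjusted p = 0.0283). The region 2438 bp upstream of the outermost start rose as well, from 3.11 and 2.43 in hESC to 4.37 and 4.30 in CM, by 0.88 (SE 0.22, limma, adjusted p = 0.0228). MES, with 4.71 and 5.06, was higher still. With the pileup over the library background in place of the local background, its difference was 0.31 (limma, adjusted p = 0.377). Neither rise was called without CM replicate 1, and the first was not called without hESC replicate 1, nor the second without hESC replicate 2 or CM replicate 2. The other 4 promoter regions of ESRRG had a peak in 2 to 7 libraries, and none of them in CM replicate 2.

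MB (chr22:35606764-35637951, minus strand) encodes myoglobin, the oxygen store of muscle. No library had a peak within 1 kb of its canonical start, the nearest peak of any library lying 3603 bp away. The gained intronic region 3753 bp upstream of that start, between the canonical start and the starts of longer transcripts (chr22:35620932-35621222), had folds of 3.61 and 4.70 in CM and no peak elsewhere. The gained region 21233 bp upstream (chr22:35638462-35638791), 611 bp from the start of a longer transcript, had 3.19 and 4.18 in CM, again with no peak elsewhere. The gained region 29722 bp downstream (chr22:35587405-35587758) had 3.496 and 3.77 in CM and 4.08 in CP replicate 2. All 3 are modest peaks, with mean −log10 q of 5.92 to 11.9 in CM. Of the other promoter regions of MB, the one 5390 bp upstream had a peak in 7 libraries, with folds of 3.48 and 3.92 in hESC, 5.09 and 6.12 for MES, 3.99 and 6.10 for CP and 4.45 in CM replicate 1, and none in CM replicate 2. The remaining 2 had peaks in 4 and 2 libraries. MB lost no region.

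**Figure D2:**
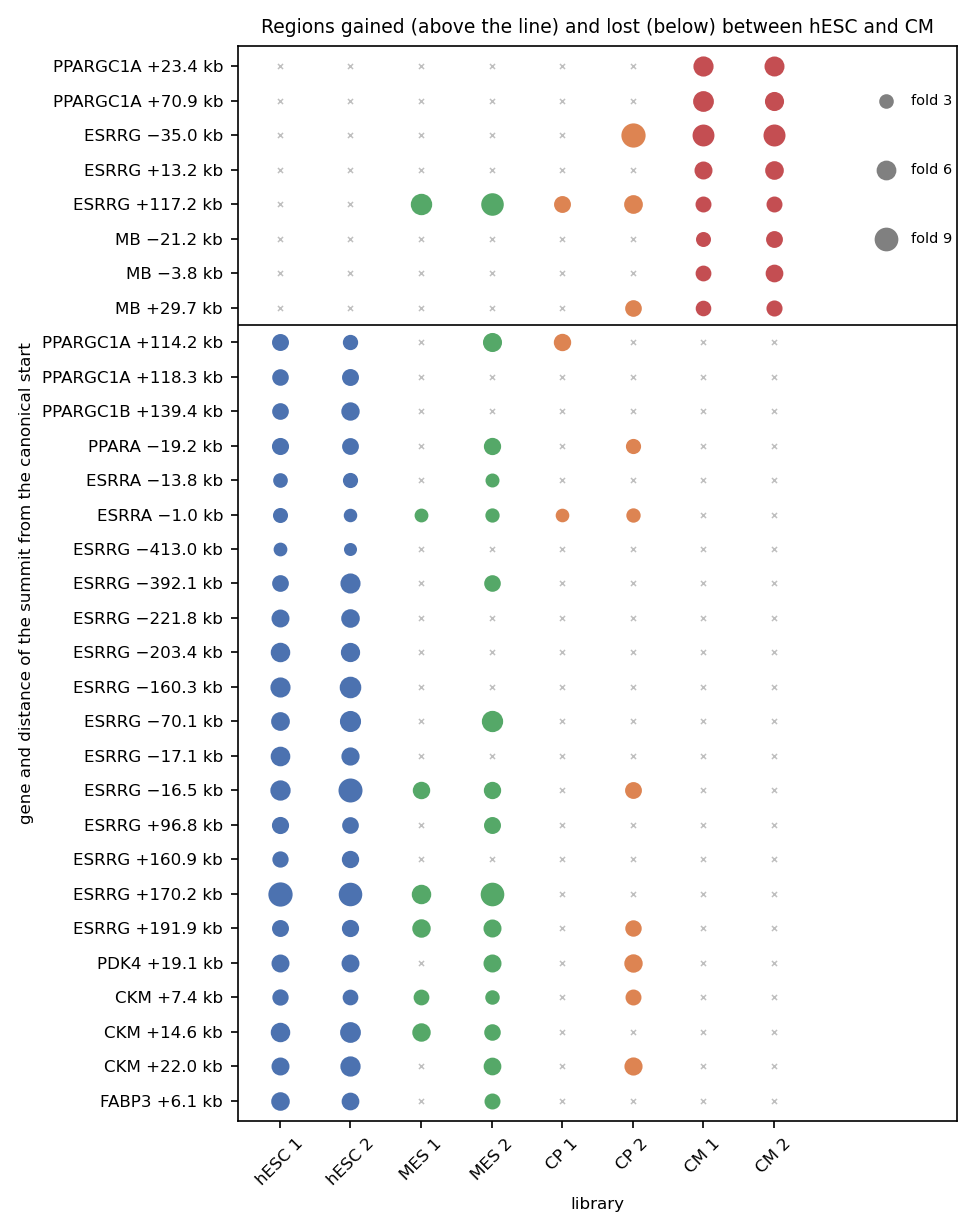
Regions gained (above the line) and lost (below) between hESC and CM, with 1 row per region named by gene and distance from the canonical start and 1 column per library. The area of a dot is proportional to the fold over background and a cross is a missing peak. Of the 8 gained rows 5 have dots in CM only, and of the 23 lost rows 8 have dots in hESC only.

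CPT1B, the muscle form of carnitine palmitoyltransferase and the entry gate of long-chain fatty acids into mitochondria, likewise had no peak within 1 kb of its canonical start in any library, the nearest lying 2075 bp away. Its window held 3 regions. The one inside the gene, in a coding exon beside the start of a short transcript, had a peak in MES replicate 1 only, with a fold of 3.25. The other 2, open in every library, lie at the promoters of neighbours, SYCE3 (folds of 6.89 to 10.5) and CHKB with the CHKB-CPT1B readthrough gene (6.28 to 8.81), and neither was called in CM against hESC (limma, −0.19 with adjusted p = 0.374, and 0.22 with adjusted p = 0.381). CPT1B and MB are thus the 2 genes of the set without a region open in all libraries at a promoter of their own.

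CKM encodes the muscle creatine kinase, which buffers ATP at the myofibril. Its promoter (chr19:45322275-45324186), with the summit 90 bp upstream of the start, was open in all libraries but weakly, with folds of 3.11 and 4.18 in hESC, 2.79 and 3.21 for MES, 3.73 and 3.52 for CP and 3.72 and 5.59 in CM. The CM replicates differed by more than the stage means did. The difference between CM and hESC was 0.56 (SE 0.20, limma, adjusted p = 0.0853), which was not called. It was 0.83 without CM replicate 1 and 0.42 without CM replicate 2. Without hESC replicate 1 it was 0.35 and without hESC replicate 2 0.75. Quantile normalization gave 0.51 (limma, adjusted p = 0.132) and no centring 0.34 (limma, adjusted p = 0.411). With the pileup over the library background it was 0.94 (limma, adjusted p = 0.0101).

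The region 3441 bp upstream of the CKM start (chr19:45326135-45326579) was the only tested one of the set that fell. Its fold was 6.79 and 4.98 in hESC, 6.41 and 6.04 for MES, 4.16 and 5.50 for CP and 3.12 and 3.43 in CM. Both CM values lay below all others, and the centred difference from hESC was −0.61 (SE 0.17, limma, adjusted p = 0.0374). The call was lost without either CM library, without hESC replicate 1 and without either MES library, and with the pileup over the library background the difference was −0.33 (limma, adjusted p = 0.195). With missing peaks set to the lowest fold of a library it was 0.145, but that setting moved all 28115 tested regions by the same 0.755. The window of 200 bp around its summit held the receptor core letters on the minus strand. CKM also lost 3 regions by presence, at 7397 bp in a coding exon, at 14638 bp in an intron and at 22017 bp downstream of the start, the last within MARK4, with hESC folds of 3.88 and 3.56, of 5.82 and 6.70, and of 4.84 and 6.34. At the neighbouring promoter of KLC3 the fold was 6.79 and 5.88 in hESC and 3.82 and 3.78 in CM, a difference of −0.51 that was not called (limma, adjusted p = 0.0602).

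**Figure D3:**
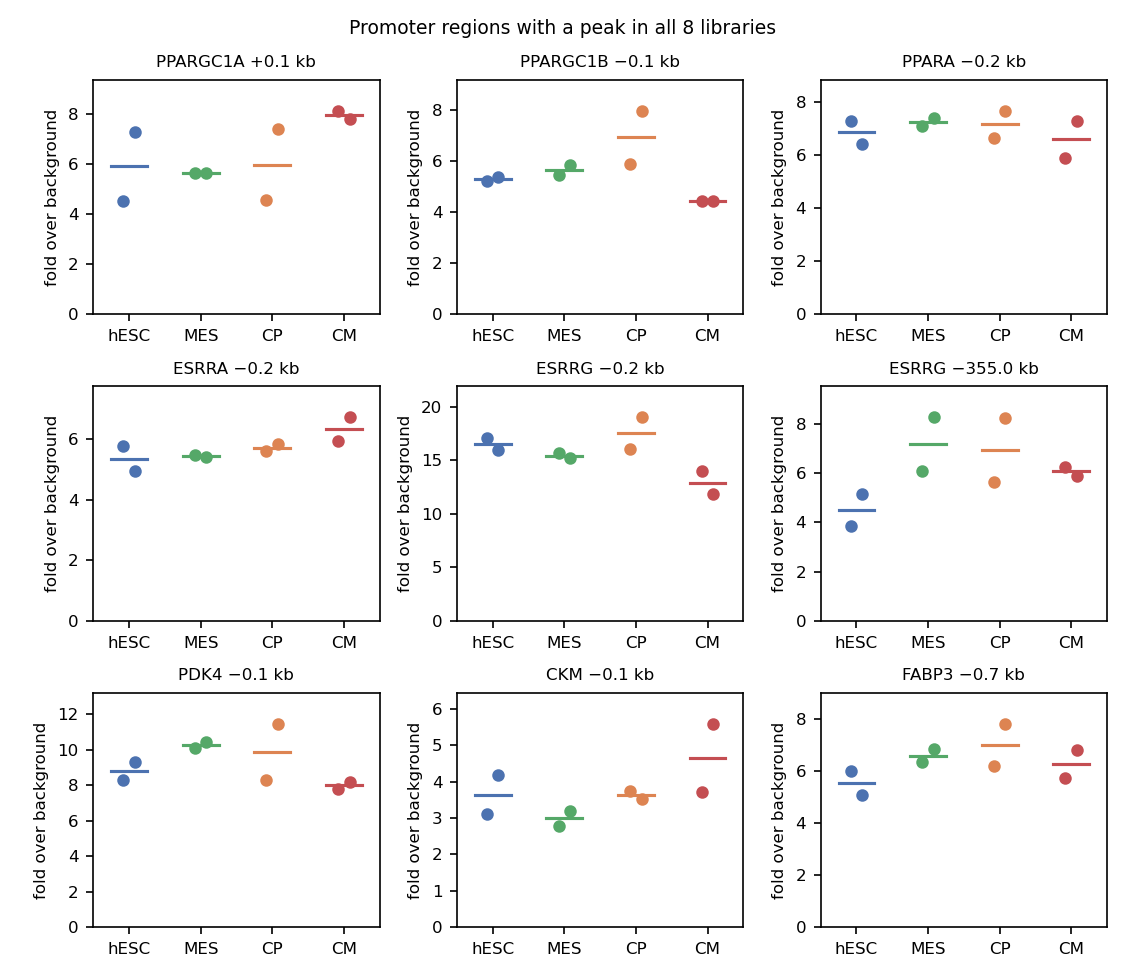
Fold over background at the 9 promoter regions of the genes with a peak in all 8 libraries, by stage. Points are the 2 libraries of a stage and bars their mean, every y axis starts at 0, and panels are named by the distance of the summit from the canonical start. The 2 CM points of PPARGC1A, at 8.14 and 7.82, lie above all others of that panel, while PDK4, PPARA and PPARGC1B show no such rise.

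The promoters of the other genes were open from the stem cell on. PDK4 encodes the kinase that shuts pyruvate out of the mitochondrial cycle by inhibiting pyruvate dehydrogenase. Its promoter had folds of 8.33 and 9.32 in hESC, 10.1 and 10.4 for MES, 8.33 and 11.5 for CP and 7.82 and 8.19 in CM, with a centred difference between CM and hESC of 0.08 (95% interval −0.22 to 0.38, limma, adjusted p = 0.713). A region 12397 bp upstream of PDK4 was among the strongest of the set at every stage, with 10.6 and 14.8 in hESC and 13.1 and 12.6 in CM (difference 0.25, limma, adjusted p = 0.294). One region 19119 bp downstream of the PDK4 start was lost, with 4.84 and 4.81 in hESC.

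FABP3 encodes the heart fatty acid binding protein, which carries fatty acids through the cytosol. Its promoter had folds of 6.003 and 5.07 in hESC, 6.35 and 6.85 for MES, 6.21 and 7.84 for CP and 5.73 and 6.82 in CM, and the groups overlapped before centring. The centred difference between CM and hESC was 0.40 (SE 0.15, limma, adjusted p = 0.0925). With the pileup over the library background it was 0.53 (limma, adjusted p = 0.0424), and without centring 0.18 (limma, adjusted p = 0.624). A FABP3 intronic region 6087 bp from the start was lost, with 5.22 and 4.69 in hESC.

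ESRRA encodes ERRα. Its promoter had folds of 5.78 and 4.95 in hESC, 5.48 and 5.42 for MES, 5.62 and 5.83 for CP and 5.96 and 6.73 in CM, the CM values being the 2 highest, with a centred difference of 0.46 (SE 0.16, limma, adjusted p = 0.0719). The region in the ESRRA window that did rise lies 12582 bp downstream at the shared promoter of PRDX5 and TRMT112, from 5.03 and 4.95 in hESC to 5.83 and 7.40 in CM (0.62, SE 0.15, limma, adjusted p = 0.0194). It was not called without CM replicate 2 or either hESC library. Both lost regions of the ESRRA window also border other genes. The one 13762 bp upstream, at the KCNK4 promoter, had 3.03 and 3.28 in hESC, and the one 1018 bp upstream, at a start of ESRRA and of CATSPERZ, had 3.22 and 2.50 in hESC and 2.56 to 2.89 in MES and CP.

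PPARA, the receptor that senses fatty acids, had promoter folds of 7.29 and 6.42 in hESC, 7.09 and 7.37 for MES, 6.65 and 7.67 for CP and 5.90 and 7.26 in CM, with a difference of 0.16 (95% interval −0.17 to 0.48, limma, adjusted p = 0.491). With the pileup over the library background the PPARA promoter differed by 0.62 (limma, adjusted p = 0.0234), and without centring by −0.06 (limma, adjusted p = 0.879). A region 19223 bp upstream was lost, with 4.32 and 4.16 in hESC, and 2 regions at inner starts of PPARA were each seen in 1 library. PPARGC1B had the broadest region of the set, 2394 bp over its promoter, with folds of 5.23 and 5.37 in hESC, 5.45 and 5.85 for MES, 5.91 and 7.99 for CP and 4.46 and 4.44 in CM. The raw CM values were the lowest, and the centred difference from hESC was −0.03 (95% interval −0.33 to 0.26, limma, adjusted p = 0.892). The lost region in its window lies 139447 bp from the start within PDE6A.

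Across the set, 23 regions had a peak in all 8 libraries and could be tested. Between hESC and CM 4 rose and 1 fell, where 6.12% of the 28115 tested regions rose and 5.75% fell (limma, adjusted p under 0.05). The median difference was 0.09 for the 23 regions and 0.10 for all regions tested. Of the 9 promoter regions of the genes themselves, 2 rose (PPARGC1A and the upstream ESRRG promoter) and 0 fell, where 6.46% of 14856 protein-coding promoters rose and 1.33% fell. At an unadjusted p under 0.05, 5 of the 9 and 23.7% of the protein-coding promoters were higher. The median was 0.40 for the 9 promoters and 0.19 for the protein-coding promoters. These calls depend on the centring of each library on its median. Without it the median of all tested regions moved from 0.10 to −0.12, only 141 regions rose and 1728 fell in place of 1720 and 1618, and in the set 0 rose and 2 fell.

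**Figure D4:**
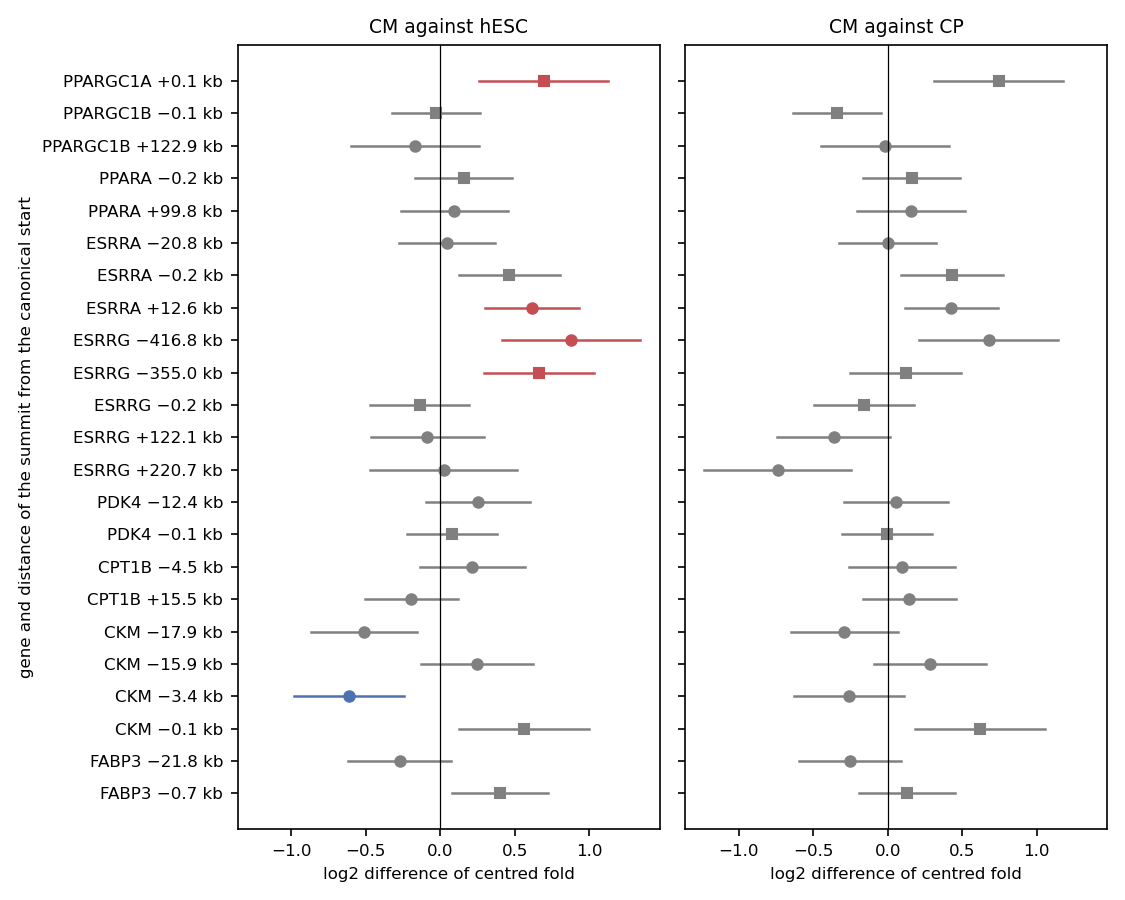
Differences in centred log2 fold of the 23 regions with a peak in all 8 libraries, CM against hESC on the left and CM against CP on the right, with 95% intervals from limma. Squares are promoters of the genes, circles other regions, red marks regions that rose and blue the one that fell at an adjusted p under 0.05. All 5 coloured regions are on the left.

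The last step, from CP to CM, gave no call in the set. With limma, 0 of the 23 regions rose and 0 fell, where 0.317% of all regions rose and 1.23% fell. At an unadjusted p under 0.05, 7 of the 23 regions and 18.8% of all regions differed in either direction. Without centring, 7 of all regions rose and 752 fell in place of 89 and 345, and in the set 0 rose and 0 fell. The PPARGC1A promoter had the highest difference of the 23, 0.74 (SE 0.20, limma, adjusted p = 0.0900). The CKM promoter stood at 0.62 (limma, adjusted p = 0.147), the region upstream of ESRRG at 0.68 (limma, adjusted p = 0.139) and the ESRRA promoter at 0.43 (limma, adjusted p = 0.181). The lowest was a region just beyond the end of ESRRG, 220729 bp from the canonical start, at −0.74 (limma, adjusted p = 0.130), whose fold was 8.79 and 18.4 in CP and 6.28 and 6.22 in CM. Both comparisons share the CM libraries, so they are not independent of each other.

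The number of peaks in each window was also set against the length of the list. The 10 windows held 47 (CM replicate 2) to 115 peaks (hESC replicate 2), which is 69.8 and 73.7 per 100000 peaks of the library in hESC, 60.0 and 57.6 for MES, 63.1 and 68.3 for CP and 80.9 and 84.3 in CM. PPARGC1A held 3.88 and 5.12 per 100000 in hESC and 7.55 and 7.17 in CM, PPARGC1B 8.73 and 10.9 against 14.0 and 14.3, and MB 4.85 and 5.76 against 8.63 and 7.17. PPARA (4.85 and 5.12 against 5.39 and 5.38) and CPT1B (1.94 and 1.28 against 2.16 and 5.38) also lay higher in both CM libraries, in CPT1B from 2 or 3 peaks per library. The CM libraries thus lay above both hESC libraries in 5 of the 10 windows, where 37.0% of the windows of all protein-coding genes did, and below in 0, where 14.8% did. The 5 became 3 with lists of equal length, with windows of 50 kb or with −log10 q of at least 5, and 9 without CM replicate 1. The 37.0% belongs to the main setting only, so these counts have no background share beside them. In ESRRG, CKM, ESRRA, PDK4 and FABP3 the groups overlapped. As plain counts, the CM libraries did not both lie above both hESC libraries in any of the 5 higher windows. PPARGC1A had 4 and 8 peaks in hESC and 7 and 4 in CM, and PPARGC1B 9 and 17 against 13 and 8. MB had 5 and 9 against 8 and 4, and PPARA 5 and 8 against 5 and 3. With 2 libraries a group, an exact permutation test of a single window cannot pass the threshold and was not made.

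**Figure D5:**
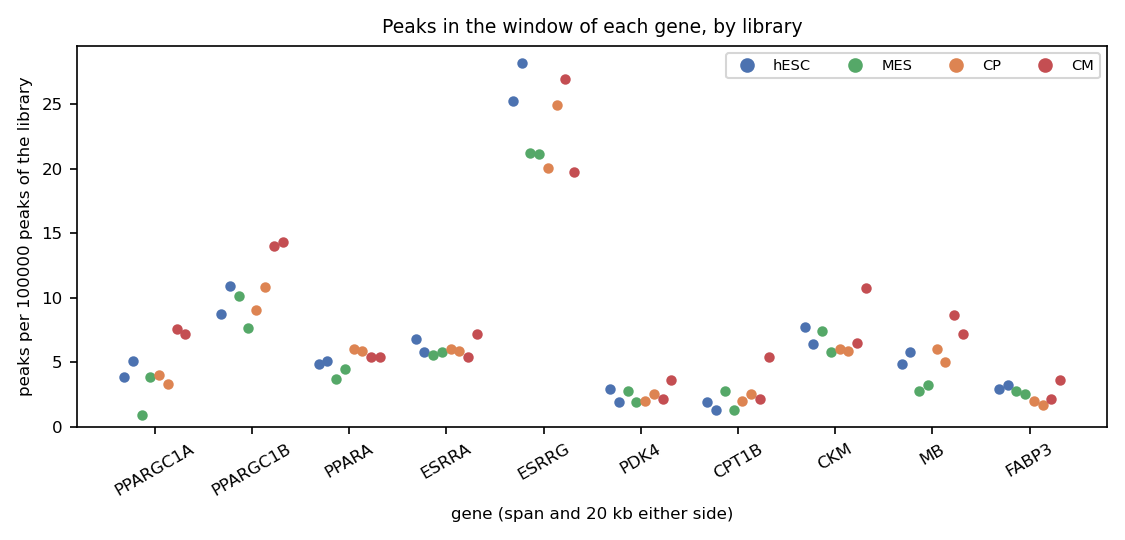
Peaks in the window of each gene per 100000 peaks of the library, with 1 point per library coloured by stage. The CM points of PPARGC1A, PPARGC1B and MB lie above the points of the other stages, and those of ESRRG overlap them.

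The genes were compared with 44 other genes of energy metabolism and with 14 myofilament genes, by promoters. Of the 102 promoter regions of the other metabolic genes, 44 had a peak in all libraries. Their median difference between hESC and CM was 0.20, against 0.19 for all protein-coding promoters. At an unadjusted p under 0.05, 27.3% of the 44 and 23.7% of all protein-coding promoters were higher. With limma, 5 of the 44 rose (11.4%) and 0 fell, where 6.46% of all protein-coding promoters rose and 1.33% fell. The 4 with the highest difference belong to KLF15, a transcription factor of cardiac lipid use (0.94, limma, adjusted p = 0.00746), CKB, the brain form of creatine kinase (0.62, limma, adjusted p = 0.0278), CPT1A, the liver form of the enzyme that CPT1B encodes (0.57, limma, adjusted p = 0.0438), and HK2, a hexokinase (0.53, limma, adjusted p = 0.0448). Each of these 4 genes also had another tested promoter region that was not called. The differences there were −0.055 in KLF15, 0.131 in CKB, 0.513 in CPT1A and 0.056 in HK2 (limma, adjusted p = 0.826, 0.548, 0.131 and 0.798). By presence, 3 of these 102 regions were gained (2 at starts of ACACB, the muscle acetyl-CoA carboxylase, and 1 of RXRA, the partner of the PPARs) and 4 were lost, and of the 22 promoter regions of the 10 genes 1 was gained and 1 lost. Among the promoters of all protein-coding genes 1.83% were gained and 8.18% lost. The myofilament promoters had 10 of 33 gained and 3 lost, with gains in 7 of the 14 genes, MYH6 among them (no peak in hESC or MES, folds of 4.28 and 5.19 in CM). Of these 33, 6 had a peak in all libraries, and with limma 0 rose and 0 fell, with 0 at an unadjusted p under 0.05 and a median difference of 0.03. The difference between the lists was not tested.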

How the data were processed

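ATAC-seq peak lists of 8 RUES2 libraries (4 stages, 2 replicates each, grouped by the labels) were taken as deposited. The authors aligned paired-end reads to hg38 (BWA 0.7.13 in the submitters' processing notes), filtered for primary hits of mapping quality over 30, dropped duplicates (Picard) and ran MACS2 2.1.0 on each library at a q-value of 0.01, shifting reads by 100 bp and extending them to 200 bp, so that the pileup is centred on the cut site of Tn5. The deposited columns used are the fold (a ratio of pileup to local background), −log10 p-values and −log10 q-values and the summit offset. The display score of the deposited lists, which the authors' peak caller makes from the q-value, was not used. No read counts were used. Pileup and background were recovered from fold and −log10 p for 100% of peaks, to within 0.001.

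Peaks were merged at 1 bp overlap and annotated with GENCODE 44. The value of a library is its highest fold in a region. The 28115 regions with a peak in all libraries were tested with limma 3.58.1 on log2 fold centred on the library median (all stages in 1 fit, two-sided, Benjamini-Hochberg adjustment over all of them, threshold 0.05), and others were described by presence. In simulated data for CM against hESC, over 28115 regions, limma recovered 42 of 100 changes of 1 and 1 of 100 changes of 0.5 on the log2 scale. The genes, lists and motifs were chosen with earlier results of these data known. Every promoter region of the genes was named or counted, with up to 3 gained or lost distal regions per gene by mean −log10 q, the distal regions called between hESC and CM, and the 4 called promoters of the metabolic list with the largest differences. The work used R 4.3.3, Python 3.11.15, numpy 2.4.6, pandas 2.3.3 and matplotlib 3.10.9.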

Additional observations from a re-analysis of the deposited data

How the results depend on the processing

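The number of gained regions of the set (8) and of lost regions (23) depends on the lists. With lists of equal length, cut at the shortest list, 11 were gained and 10 lost, with a peak in either library of a stage 28 and 66, and with 1 library left out the counts ran from 8 to 23 and from 25 to 61, highest for gains without CM replicate 2 and for losses without hESC replicate 1. Without CM replicate 1 they were 13 and 35. Windows with more peaks per 100000 in CM (5) numbered 3 with windows of 50 kb, with −log10 q of at least 5 and with lists of equal length, and 5 to 9 with 1 library left out, highest without CM replicate 1. Windows with fewer (0) numbered 1 with lists of equal length and 0 to 2 with 1 library left out. The share of all protein-coding windows is given for the main setting only, so these window counts have no background beside them. Between hESC and CM, 4 tested regions of the set rose and 1 fell. Without centring 0 rose and 2 fell, with quantile normalization 3 rose and 2 fell, and with the pileup over the library background 8 rose. With missing peaks at the lowest fold 18 of 73 rose, against 16599 of 96851 over all regions. That setting takes every region with a peak in both libraries of either stage, so its counts come from more regions than the main test. With 1 library left out 1 to 4 rose and 0 to 1 fell. The fall at CKM was 0.145 with missing peaks at the lowest fold, a setting that moved all 28115 regions of the main test by 0.755 between hESC and CM. For CP and CM that setting tested 55 regions of the set and 77127 in all. Between CP and CM, 7 rose with missing peaks at the lowest fold and 1 with the pileup over the library background, and 0 to 1 rose and 0 to 1 fell with 1 library left out. The labels do not say that a replicate number marks a shared source. The correlations of the replicate differences were 0.13 to 0.19 among hESC, MES and CP and −0.12 to 0 with CM, so pairing was not assumed. With a replicate block 2 regions of the set fell between hESC and CM, with no other count moved by over 1.5 times. Over all regions, with missing peaks at the lowest fold 16599 rose and 2105 fell between hESC and CM, with the pileup 2831 and 1941, and with quantile normalization 1132 and 1659. Between CP and CM they were 5284 and 7382 with missing peaks at the lowest fold, 320 and 379 with the pileup, and 0 and 0 of 36832 by limma without CM replicate 2, with 4702 at an unadjusted p under 0.05. With 1 library left out, 434 to 2284 rose and 428 to 2058 fell between hESC and CM. The cause of these changes was not tested. A region without a peak in CM replicate 2, with the shortest list, cannot be called gained. In the simulated data most changes of 1 or 0.5 on the log2 scale went uncalled. Only 100 regions were changed at each size there, against 1720 and 1618 called in the data, so those rates do not carry over. The calls in the set had differences of 0.62 to 0.88 and of −0.61. An uncalled difference is not evidence of no change.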

Other observations

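Outside the 10 genes, promoter regions of a few metabolic genes that open or close by presence are given with their values. Both gained regions of ACACB had no peak in hESC. The first had folds of 5.85 and 5.69 in CM and 3.62 in MES replicate 1, and the second had 4.69 and 6.04 in CM, 4.36 and 4.89 in CP and 3.95 in MES replicate 1. The gained RXRA region had 3.20 and 4.39 in CM and 4.91 in CP replicate 2, and another RXRA promoter region was lost, with 2.55 and 2.18 in hESC and no peak elsewhere. CPT1A had 2 lost promoter regions, with folds of 6.96 and 6.77 and of 3.40 and 3.78 in hESC, both still present in MES and CP. Another of its promoter regions, the one called in CM against hESC, had 5.24 and 4.92 in hESC and 5.97 and 7.05 in CM. The lost region of ESRRB, the relative of ESRRA and ESRRG that is known from pluripotent cells, had 3.46 and 2.93 in hESC, 2.61 and 3.49 in MES, and no peak in CP or CM. Other ESRRB promoter regions kept a peak in CM. One had 4.00 and 3.33 in hESC and 4.81 and 5.02 in CM. Another had a peak in all libraries and was not called (−0.22, limma, adjusted p = 0.369).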
